A study of Mus musculus with 4 samples.

Results

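The genes described here are Lin28a, Lin28b, Trim71, Dis3l2, Hmga1, Hmga2, Igf2bp1, Igf2bp2 and Igf2bp3, which belong to or are regulated by the LIN28 and let-7 pathway of early progenitor cells. They were chosen by name: every row of the 4 site tables whose gene was one of these symbols was taken. The 9 genes stand among 20001 genes named in the tables. They hold 1410 distinct sites out of 1076788 listed in any library, of which 833043 lie inside genes.

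The study mapped N6-methyladenosine (m6A), the most frequent internal modification of mRNA, in polyA RNA of mouse retinal organoids by GLORI. In this assay glyoxal and nitrite turn unmethylated adenosine into inosine, which is sequenced as G, and m6A is still sequenced as A, so the methylation level of a position is the percentage of its A or G reads that carry A. All 4 libraries came from day 6 organoids of an Rx:GFP line, which carries a retinal reporter. In this line FKBP12F36V-HA, a degradation tag, had been placed at the C-terminus of endogenous Mettl3, the gene of the catalytic subunit of the main mRNA m6A methyltransferase. The untreated group comprised 2 libraries (0 h). The dTAG13 group comprised 2 libraries collected 8 h after 125 nM dTAG13, a molecule that directs tagged proteins to the proteasome. The tagged allele and the reporter were therefore shared by both groups. The genotype entries name Mettl3, Mettl4, Mettl5 and Mettl6 for the 4 samples in turn, whereas the series title and design name METTL3 throughout, and METTL3 was taken to be the tagged protein in every library. The level of METTL3 protein was not analysed here. The labels do not say how many clones of the line were used or whether the replicates were separate cultures.

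LIN28A and LIN28B are RNA-binding proteins that bind precursors of the let-7 microRNAs and block their maturation. LIN28A recruits terminal uridylyltransferases to the precursor, and DIS3L2 is the exonuclease that degrades the uridylated product. Mature let-7 in turn represses mRNAs that include Lin28a, Lin28b, Trim71, Hmga2 and the Igf2bp genes, so progenitor genes and let-7 hold each other in check. TRIM71 is an RNA-binding E3 ubiquitin ligase of early embryonic cells, HMGA1 and HMGA2 are architectural chromatin proteins that bind AT-rich DNA, and IGF2BP1, IGF2BP2 and IGF2BP3 are RNA-binding proteins known to stabilise mRNAs and described as readers of m6A.

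The let-7 microRNAs are shown because they connect the genes above, although they were not measured in these libraries. Of 11 mouse let-7 and miR-98 5p names in RefSeq (GRCm38.p6), 10 share the seed of let-7a, bases 2 to 8, which is printed in capitals. The 4 below show the shared seed and the single name in the table with another one.
mmu-let-7a-5p: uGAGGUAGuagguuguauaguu
mmu-let-7g-5p: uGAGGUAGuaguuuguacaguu
mmu-miR-98-5p: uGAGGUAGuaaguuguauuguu
mmu-let-7j: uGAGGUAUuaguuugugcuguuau

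The whole tables listed between 220034 and 350462 sites per library, with a median of 75 to 91 A and G reads per site. Reads summed over listed sites were lowest in dTAG13 replicate 1, at 30102136, against 45966738 to 54905380 in the other libraries. Only called sites are listed: no library has a row under 15 reads in total, 5 reads with A, or a level of 10%. A position missing from a table may thus be unmethylated, below these limits or uncovered. All 7 retinal progenitor markers reported (Rax, Pax6, Six3, Six6, Lhx2, Otx2 and Sox2) were listed in all 4 libraries. So were all 7 pluripotent cell markers, Pou5f1, Nanog and Dppa5a among them. Of 7 mesoderm or endoderm markers 5 were listed in some library and Sox17 alone in all 4, and T and Mixl1 were listed in none. Of 5 neural crest or surface ectoderm markers 3 were listed, Krt18 alone in all 4, and Krt8 and Trp63 in none.

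The first comparison asked whether the 9 genes carried fewer called sites after 8 h of dTAG13. They did in sum: 444 sites were listed in each untreated library and 301 and 392 in dTAG13 replicates 1 and 2. The means were 444 ± 0 and 346.5 ± 64.3 (SD, n = 2 each), a ratio of 0.780, and the groups did not overlap. An exact permutation test, two-sided, gave p = 0.33, and no lower p is possible with 2 libraries on each side. The same ratio was 0.714 over all sites inside genes. Without dTAG13 replicate 1, the shallower library, the ratio of the 9 genes was 0.883, and without dTAG13 replicate 2 it was 0.678.

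**Figure D1:**
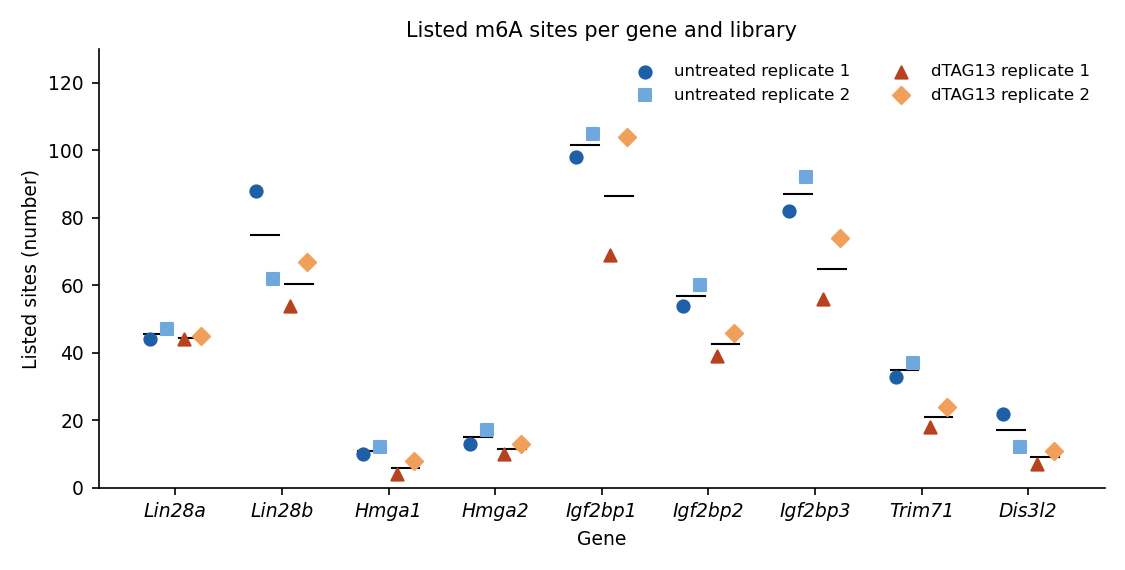
Number of listed m6A sites (y axis) of each gene (x axis) in the 4 libraries; symbols are single libraries and short lines are group means (n = 2). The 2 dTAG13 values lie below both untreated values for Hmga1, Igf2bp2, Igf2bp3, Trim71 and Dis3l2, and the 4 values of Lin28a lie between 44 and 47.

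The single genes differed in this count. Lin28a listed 44 and 47 sites without dTAG13 and 44 and 45 with it. Its ratio was the closest to 1 among the 9 genes (0.978). Lin28b listed 88 and 62 without and 54 and 67 with dTAG13, so its groups overlapped. Trim71 listed 33 and 37 against 18 and 24, and Dis3l2 listed 22 and 12 against 7 and 11. The last pair of genes had among the lowest ratios of the 9, 0.600 for Trim71 and 0.529 for Dis3l2, both without overlap between the groups.

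Hmga1 listed 10 and 12 sites without dTAG13 and 4 and 8 with it, also without overlap. Hmga2 listed 13 and 17 against 10 and 13, and the groups met at 13. Of the readers, Igf2bp1 listed 98 and 105 against 69 and 104, which overlap. Igf2bp2 listed 54 and 60 against 39 and 46, and Igf2bp3 82 and 92 against 56 and 74, with both dTAG13 values the lower ones. In all, the dTAG13 pair lay wholly below the untreated pair in 5 of the 9 genes and above them in 0. Among the 12520 genes that every library lists, the background was 44.6% below and 4.53% above, and among the 8242 genes with a mean of at least 10 untreated sites 57.3% lay below. The count for the 9 genes is therefore near the background, and the median ratio of 0.747 stands beside 0.714 for all genes.

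Split by level, a division made after the data were seen, the groups were apart at the weakest sites and overlapped above 20%. At 10 to under 20% the 9 genes listed 246 and 227 sites without dTAG13 and 130 and 176 with it (ratio 0.647, exact permutation p = 0.33). At 20 to under 50% they listed 132 and 164 against 117 and 146 (ratio 0.889, exact permutation p = 0.667). At 50% or more they listed 66 and 53 against 54 and 70 (ratio 1.04, exact permutation p = 0.667), where the groups overlap. All sites inside genes gave ratios of 0.680, 0.690 and 0.788 in these 3 bands, so the number was lower in each of them. Whether the bands differ was not tested.

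The listed sites of the 9 genes had lower median levels than all sites inside genes. Untreated libraries gave a median level of 18.5% and 19.4% and dTAG13 libraries one of 21.7% and 22.2%, against 27.0% to 29.3% over all sites inside genes. The 2 dTAG13 medians lay above both untreated ones (19.0% ± 0.667 and 22.0% ± 0.315, SD, n = 2 each), with p = 0.33 in the exact two-sided permutation test. Near-complete sites, with a level of 90% or more, made up 5.63% and 6.08% of the sites without dTAG13 and 7.97% and 8.16% with it. Over all genic sites these shares were 14.5% to 18.4%. The member sites were also read more deeply, with library medians of 133 to 170.5 reads against 87 to 112 over all genic sites. The part of read depth in the lower levels was not tested. The listing limit of 10% keeps a site that drops below it out of these medians, so a median over listed sites is not the median of a fixed set of positions.

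Genes differed in this respect. Lin28a was among the genes with the lowest levels, with a median of 14.1% and 14.8% without dTAG13 and 16.1% and 16.9% with it. Trim71 had medians of 23.4% and 35.7% without and 53.5% and 26.7% with dTAG13. Dis3l2 had 40.7% and 28.9% without and 87.3% and 50.0% with dTAG13, the latter over only 7 and 11 sites. In Dis3l2 and Trim71 near-complete levels were also most frequent among sites listed by a single library, 10 of 46 (21.7%) and 19 of 97 (19.6%). In Lin28a there was 1 of 130 (0.769%), and in Hmga1 there were 0 of 22. Over all sites inside genes that a single library listed, the share was 17.8%.

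The tables also give a coverage value for each gene and library, whose way of averaging is not stated. It was highest for Hmga1 (mean over the 4 libraries 1145, the 98.3rd percentile of the 12520 genes) and Lin28a (666, 96.0th percentile). Igf2bp3 (339), Igf2bp1 (277), Igf2bp2 (270) and Lin28b (169) followed. Trim71 (136), Dis3l2 (104) and Hmga2 (91.2) lay nearest the middle of all genes. The ranges over the 4 libraries overlapped between all neighbours in this order except Lin28a and Igf2bp3. How the value relates to gene length is not stated either, so the order describes these tables only.

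The comparison of coverage asked whether the RNA of these genes differed between the groups after 8 h. As deposited, coverage was lower in both dTAG13 libraries than in both untreated ones for Lin28a, Lin28b, Hmga1, Igf2bp1, Igf2bp2 and Igf2bp3, 6 of the 9 genes, and higher for 0. Over all 12520 genes this pattern held in 28.1% for lower and in 10.1% for higher values. The median gene stood at 99.2 and 103.2 in the untreated and 82.4 and 110.9 in the dTAG13 libraries, so values were centred on the median of each library before testing. After centring, both dTAG13 values were lower for 7 of the 9 genes, Hmga2 being added, against 29.2% of all genes.

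**Figure D2:**
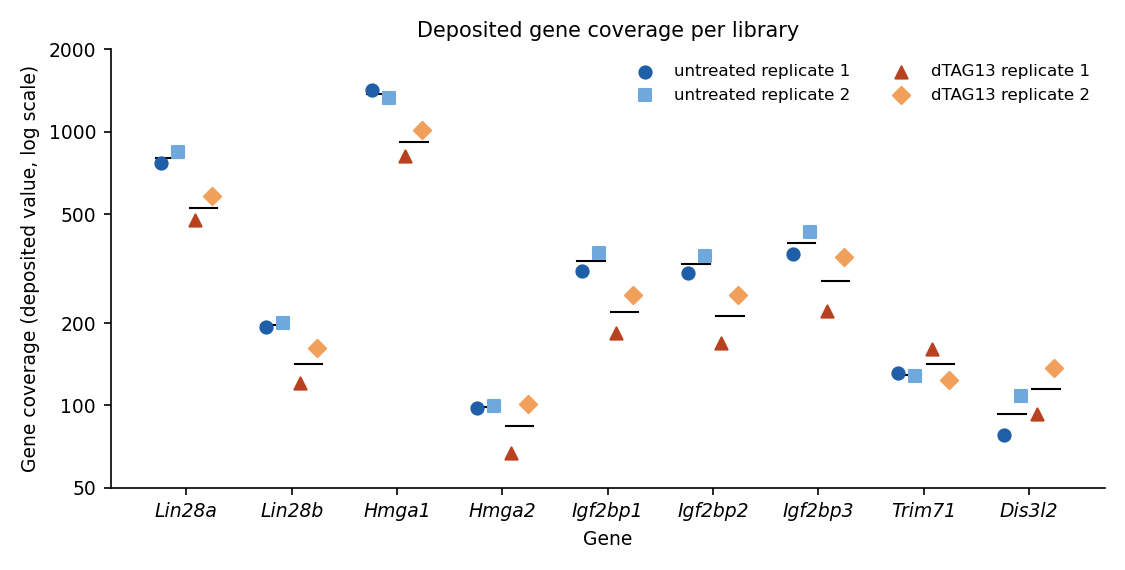
Deposited coverage of each gene (y axis, deposited value, log scale) in the 4 libraries, before centring; symbols are single libraries and short lines are group means (n = 2). Hmga1 lies between 816 and 1423, and the dTAG13 values lie below the untreated ones for 6 genes but not for Hmga2, Trim71 or Dis3l2.

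Lin28a had a coverage of 767 and 840 without dTAG13 and 477 and 580 with it. Both dTAG13 values were lower, and the centred difference was -0.53 on the log2 scale (SE 0.20, adjusted p = 0.378 by limma with Benjamini-Hochberg adjustment). Lin28b, its paralogue, had 193 and 200 against 121 and 163, a difference of -0.40 (SE 0.19, limma adjusted p = 0.432). Neither passed the threshold of 0.05. Trim71 had 131 and 128 against 160 and 124, which overlap (0.20, SE 0.30, limma adjusted p = 0.792). Its sign rested on dTAG13 replicate 1, and without that library the difference was -0.19. Dis3l2 had 77.7 and 108 against 93.1 and 137, also overlapping (0.39, SE 0.23, limma adjusted p = 0.504).

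Hmga1 had a coverage of 1423 and 1330 without dTAG13 and 816 and 1010 with it, so the groups were apart (-0.52, SE 0.20, limma adjusted p = 0.385). Its level is uncertain, since near-identical copies of Hmga1 may take some of its reads. Hmga2 had 97.5 and 99.2 against 66.8 and 101.4, with dTAG13 replicate 1 alone low (-0.17, SE 0.20, limma adjusted p = 0.726). Igf2bp1 had 311 and 360 against 184 and 254 (-0.55, SE 0.20, limma adjusted p = 0.372). Igf2bp2 had 304 and 352 against 170 and 254 (-0.57, SE 0.20, limma adjusted p = 0.367). Igf2bp3 had 357 and 428 against 221 and 348 (-0.42, SE 0.21, limma adjusted p = 0.452). In all 3 Igf2bp genes every dTAG13 value lay below every untreated one, and no difference passed the threshold.

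By limma, 0 of the 12520 genes passed an adjusted p of 0.05 for coverage (0%). Before adjustment 1595 genes were under 0.05, and 1044 of the 12520 were lower with dTAG13 in this way (8.34%). Of the 9 genes 4 were among them: Lin28a (limma, unadjusted p = 0.0396), Hmga1 (0.0445), Igf2bp1 (0.0346) and Igf2bp2 (0.0316). The median difference was -0.42 over the 9 genes and -0.07 over all genes. Coverage itself went with this difference. Among the 3566 genes with a mean coverage of at least 150, a background added after the data were seen, the median was -0.28 and 49.2% had both dTAG13 values lower. The 6 members in that range (Lin28a, Lin28b, Hmga1 and the Igf2bp genes) had a median of -0.52 and lay between the 16.0th and 34.7th percentile of those genes. With quantile normalization the differences shrank to -0.14 for Hmga1, -0.19 for Lin28a, -0.25 for Lin28b, -0.29 for Igf2bp1, -0.33 for Igf2bp2 and -0.15 for Igf2bp3, and no member passed the threshold. In these bulk organoids fewer cells expressing a gene and less RNA per cell cannot be told apart.

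The most highly covered member, Hmga1, was compared with all other genes by the Euclidean distance of their log2 coverage over the 4 libraries. The closest were Ifitm2 (distance 0.123), Hdgf (0.151) and Arl6ip1 (0.218). Hdgf, for example, had 1337 and 1377 untreated and 760 and 985 after dTAG13. The measure selects genes with the order of Hmga1 over the libraries, so that order in them is no further observation.

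The conversion rate of a gene, the share of its adenosines read as G, is given beside the site counts because an unconverted adenosine is read as A, like a methylated one. Trim71 differed most among the 9 genes. It converted at 95.6% and 94.8% in untreated and at 97.3% and 97.3% in dTAG13 libraries, 2.11 points higher on average (unadjusted p = 0.0258, limma adjusted p = 0.382). Hmga1 had 96.2% and 96.4% against 98.0% and 97.3%, and Hmga2 96.0% and 97.3% against 97.8% and 97.8%. Lin28b had 96.3% and 96.7% against 97.2% and 97.3%, and Igf2bp2 96.36% and 96.33% against 96.37% and 96.61%. In these 5 of 9 genes both dTAG13 values lay above both untreated values, against 40.9% of all genes.

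In the other members the groups overlapped: Lin28a lay at 96.2% to 97.5%, Igf2bp1 at 95.6% to 96.3%, Igf2bp3 at 96.9% to 97.3% and Dis3l2 at 96.4% to 97.2%. By limma on log2 odds 0 of 12520 genes passed the adjusted threshold for conversion (0%), and 1540 had an unadjusted p under 0.05. Of these 1407 were higher with dTAG13 (11.2%), Trim71 being the single member among them. The median difference of the 9 genes, 0.552 points, was smaller than that of all genes, 0.666 points. Trim71, with the largest difference in conversion, is also a gene whose numbers of listed sites did not overlap between the groups, and the part of conversion in that difference was not tested. As defined above, a methylated adenosine also counts as unconverted, so conversion and site numbers are not independent measures.

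The remaining results go gene by gene. Positions are printed as deposited. Contig names and gene positions point to mouse build GRCm39, although the submitters' processing notes name mm10. No annotation of GRCm39 was used, so exon, intron and UTR were not assigned. Shares of sites within 5 kb of the 3′-most listed one are given without a background over all genes. Sites are named where at least 2 libraries listed them, up to 6 per gene, 49 in all. The Wilson 95% intervals of their 123 library values were 1.26 to 43.1 points wide, with a median of 8.02, and cover counting error only.

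**Figure D3:**
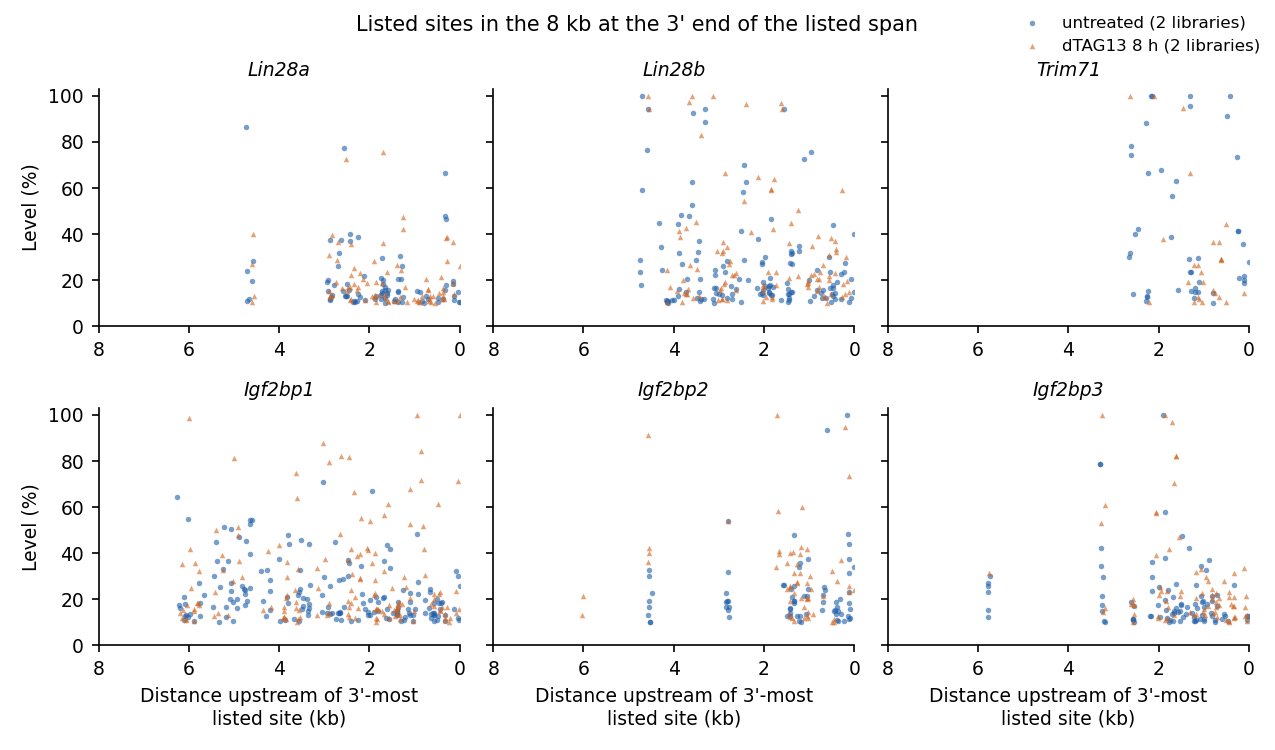
Level of every listed site (y axis, %) against its distance upstream of the 3′-most listed site of the gene (x axis, kb, the 3′ end at the right), for 6 genes and up to 8 kb; circles are the 2 untreated and triangles the 2 dTAG13 libraries. The share of distinct sites within 5 kb of that site was 92.2% in Lin28a and 87.1% in Lin28b, and the lowest of the 6 genes shown was Igf2bp3 with 55.0%.

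Lin28a, on the minus strand of chromosome 4, had 153 distinct sites between 133730668 and 133746071, and 141 of them (92.2%) lay within 5 kb of the 3′-most one. A single library listed 130, and 20, 2 and 1 were listed in 2, 3 and 4 libraries. The site in all 4 libraries, chr4:133730821, had a level of 19.7% (7639 reads) and 18.2% (7117 reads) without dTAG13. It had 36.4% (3049 reads) and 18.6% (4977 reads) with it. The first dTAG13 library thus stood apart from the other 3, with a Wilson interval of 34.7% to 38.1%. The quasi-binomial test gave an adjusted p of 0.849. With the reads of each group summed, the difference of 6.36 points became -0.403 without dTAG13 replicate 1.

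At chr4:133730796 the level of Lin28a was 13.3% (8644 reads) and 11.5% (9831 reads) without dTAG13 and 14.2% (5455 reads) in dTAG13 replicate 2. The remaining library did not list it. At chr4:133732924 it was 38.6% (44 reads), 13.9% (245 reads) and, in dTAG13 replicate 1, 17.2% (186 reads), so the untreated libraries alone spanned the range. Neither site passed the test over sites in at least 3 libraries (quasi-binomial adjusted p = 0.785 and 0.996). At chr4:133731508 untreated replicate 1 gave 10.9% (1212 reads) and dTAG13 replicate 1 gave 13.3% (421 reads). At chr4:133733015 the same libraries gave 11.0% (806 reads) and 25.1% (517 reads). At chr4:133731551 the second replicates gave 14.8% (797 reads) and 10.3% (802 reads). These pairs go in both directions. Among sites that a single library listed with at least 50 reads, the highest level was 86.4% (75.5% to 93.0%, 59 reads) at chr4:133735406 in untreated replicate 1.

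Lin28b, on the minus strand of chromosome 10, had 255 distinct sites between 45252752 and 45362405, and 222 (87.1%) lay within 5 kb of the 3′-most one. In spite of this number, 240 were listed by 1 library, 14 by 2, 1 by 3 and 0 by all 4. The site in 3 libraries, chr10:45255624, had 23.7% (249 reads) in untreated replicate 2 and 66.7% (60 reads) and 19.0% (184 reads) with dTAG13. The dTAG13 libraries lay on either side of the untreated one (quasi-binomial adjusted p = 0.949). At chr10:45256633 untreated replicate 1 had 16.1% (174 reads) and dTAG13 replicate 2 had 41.4% (408 reads). At chr10:45255579 untreated replicate 2 had 28.5% (323 reads) and dTAG13 replicate 1 had 11.6% (95 reads). The 2 sites lie on opposite sides, and each rests on 1 library a group.

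At the other 3 named sites of Lin28b both listed levels were low. At chr10:45256902 the first replicates had 10.5% (475 reads) and 10.7% (440 reads). At chr10:45254773 the second replicates had 13.4% (277 reads) and 10.8% (286 reads), and at chr10:45254577 untreated replicate 2 had 13.5% (155 reads) and dTAG13 replicate 1 had 11.8% (340 reads). Their intervals overlap in each pair. Elsewhere the libraries lay far apart: at chr10:45256144, a site chosen after its values were seen, untreated replicate 1 had 11.7% (188 reads) and dTAG13 replicate 2 had 83.0% (53 reads). Lin28b also had more near-complete single-library sites than any other of the 9 genes, 31 of 240 (12.9%). This share was below the 17.8% of all single-library sites inside genes. Among sites with at least 50 reads in a single library, chr10:45361536 was highest, at 100% (96.5% to 100%, 105 reads) in dTAG13 replicate 1.

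Trim71, on the minus strand of chromosome 9, had 104 distinct sites between 114340440 and 114393241, 66 of them (63.5%) within 5 kb of the 3′-most one. Of the member sites in 3 or 4 libraries, its site chr9:114341744 had the highest levels. The level there was 100% (88.3% to 100%, 29 reads) and 95.5% (91.7% to 97.6%, 201 reads) without dTAG13. It was 66.7% (45.4% to 82.8%, 21 reads) in dTAG13 replicate 1, and dTAG13 replicate 2 did not list it. Both untreated values lie above the dTAG13 interval. The quasi-binomial test over sites in at least 3 libraries gave p = 0.0751 and an adjusted p of 0.508, so the site did not pass, and the lone dTAG13 library was assumed to vary like the other arm.

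Of the other Trim71 sites in 2 libraries, 3 were listed by both untreated libraries and by no dTAG13 library. These were chr9:114392139 at 43.5% (69 reads) and 52.5% (61 reads), chr9:114342681 at 66.7% (15 reads) and 15.2% (112 reads), and chr9:114393065 at 90.3% (31 reads) and 21.1% (71 reads). Only at the first of them did the untreated replicates have overlapping intervals. In the opposite direction, chr9:114341090 was listed by both dTAG13 libraries, at 36.8% (174 reads) and 12.8% (289 reads), and by neither untreated one. At chr9:114341227 untreated replicate 1 had 14.3% (287 reads) and dTAG13 replicate 1 had 36.4% (22 reads). The highest well-covered single-library level of Trim71 was 100% (97.4% to 100%, 145 reads) at chr9:114391689 in untreated replicate 2.

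Dis3l2, on the plus strand of chromosome 1, had 49 distinct sites spread over 304.7 kb, from 86673116 to 86977807, and 20 (40.8%) lay within 5 kb of the 3′-most one. Its sites recurred little: 46 were listed by 1 library and 3 by 2. At chr1:86977633 both untreated libraries listed 55.8% (165 reads) and 26.4% (277 reads), and no dTAG13 library listed it. At chr1:86785030 both dTAG13 libraries listed 93.5% (31 reads) and 92.6% (27 reads), and no untreated library did. At chr1:86806176 untreated replicate 1 had 80.0% (15 reads) and dTAG13 replicate 2 had 62.5% (64 reads), with overlapping intervals. The 3 sites therefore show no common direction. Of its well-covered single-library sites chr1:86972582 was highest, at 100% (93.2% to 100%, 53 reads) in untreated replicate 2.

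Hmga1, on the plus strand of chromosome 17, had only 27 distinct sites between 27775632 and 27782401 although its coverage was the highest of the 9 genes. Within 5 kb of the 3′-most one lay 12 (44.4%). Of the 27 sites 22 were listed by 1 library, 4 by 2 and 1 by all 4. The last, chr17:27775781, had 13.3% (413 reads) and 19.1% (572 reads) without dTAG13 and 12.7% (157 reads) and 15% (300 reads) with it. The means were 16.2% ± 4.06 and 13.9% ± 1.60 (SD, n = 2 each), less apart than the untreated replicates. The site did not pass (quasi-binomial adjusted p = 0.920). With the reads of each group summed, the sign turned without untreated replicate 2, to 0.906 points. At chr17:27782323 both untreated libraries had 10.1% (1972 reads) and 12.2% (1833 reads), and at chr17:27782355 they had 12.3% (1371 reads) and 12.3% (1030 reads). No dTAG13 library listed these positions, whose levels lie just above the listing limit of 10%. At chr17:27776008 untreated replicate 1 had 14.5% (414 reads) and dTAG13 replicate 2 had 13.4% (455 reads), and at chr17:27778526 the second replicates had 15.9% (44 reads) and 13.1% (153 reads). The highest well-covered single-library level was 54.3% (42.7% to 65.4%, 70 reads) at chr17:27782401 in untreated replicate 1, and no site of Hmga1 reached 90%.

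Hmga2, on the minus strand of chromosome 10, had 48 distinct sites between 120197200 and 120312348, 40 of them (83.3%) within 5 kb of the 3′-most one. No site was listed by both libraries of a group, and 5 were listed by 1 library of each. At chr10:120312285 the first replicates had 24.6% (668 reads) and 23.7% (224 reads), and at chr10:120200068 untreated replicate 1 and dTAG13 replicate 2 had 12.99% (77 reads) and 12.8% (39 reads). These values differ by less than their intervals. At chr10:120312145 untreated replicate 1 had 37.4% (30.7% to 44.7%, 179 reads) and dTAG13 replicate 2 had 10.3% (7.26% to 14.4%, 282 reads). At chr10:120198517 the second replicates had 17.9% (173 reads) and 13.1% (168 reads), and at chr10:120312139 they had 19.4% (31 reads) and 10.0% (280 reads). In all 5 the dTAG13 value was the lower one, with a median difference of -4.82 points, but without a replicate in either group there was no test. Hmga2 reached its highest well-covered single-library level, 99.1% (95.1% to 99.8%, 111 reads), at chr10:120312348 in untreated replicate 2.

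Igf2bp1, on the minus strand of chromosome 11, had the most distinct sites of the 9 genes, 328 between 95848014 and 95896726, with 230 (70.1%) within 5 kb of the 3′-most one. Of these 288 were listed by 1 library, 35 by 2, 2 by 3 and 3 by all 4. The 3 lie close together and were read far more deeply than the rest of the gene. At chr11:95849401 the level was 14.7% (9373 reads) and 14.97% (11070 reads) without dTAG13 and 15.5% (6952 reads) and 16.8% (6350 reads) with it. The means were 14.8% ± 0.181 and 16.1% ± 0.970 (SD, n = 2 each). Both dTAG13 values were higher, by 1.31 points on average, and the difference did not pass the quasi-binomial test (p = 0.0877, adjusted p = 0.623).

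At chr11:95849406 Igf2bp1 had 13.5% (9010 reads) and 13.3% (11144 reads) without dTAG13 and 13.7% (7066 reads) and 15.5% (6309 reads) with it, both slightly higher (quasi-binomial adjusted p = 0.734). At chr11:95849376 it had 16.8% (6409 reads) and 18.8% (7372 reads) against 18.1% (4467 reads) and 16.6% (4683 reads), which overlap (quasi-binomial adjusted p = 0.940). With the reads of each group summed, the sign of the latter turned without untreated replicate 2 or dTAG13 replicate 2, to 0.565 and 0.193 points. The 3 sites are among the most deeply read of the 9 genes, and their levels lay between 13.3% and 18.8% in every library.

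The reads at these Igf2bp1 positions stood out from the coverage of their gene. They were 30.1, 30.7, 37.8 and 25.0 times the gene coverage at chr11:95849401 in untreated replicates 1 and 2 and dTAG13 replicates 1 and 2. At chr11:95849406 they were 29.0, 31.0, 38.4 and 24.8 times, and at chr11:95849376 20.6, 20.5, 24.3 and 18.4 times. The 38.4 was the highest of 913589 library values inside genes. Ratios of at least 10 made up 437 of these (0.0478%) in 249 genes, and Igf2bp1 held 13 of them, more than any other gene, the next having 10. Of the 9 sites with such a ratio in all 4 libraries, 3 were these sites of Igf2bp1. Lin28a held 2 more values, 11.3 and 11.7 at chr4:133730796 without dTAG13, and the other 7 members had none. What set these read numbers was not tested.

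At chr11:95849701 Igf2bp1 had 36.5% (885 reads) and 20.9% (363 reads) without dTAG13 and 32.3% (393 reads) in dTAG13 replicate 2. At chr11:95851849 it had 21.1% (351 reads) in untreated replicate 2 and 21.7% (115 reads) and 36.1% (202 reads) with dTAG13. At the first site the untreated replicates spanned the dTAG13 value, and at the second both dTAG13 values were the higher ones, without passing the test (quasi-binomial adjusted p = 0.997 and 0.773). At chr11:95853897 the second replicates had 10.5% (1655 reads) and 14.9% (476 reads). Igf2bp1 also had a single-library site at 100% (94.1% to 100%, 61 reads) at chr11:95864775 in untreated replicate 1.

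Igf2bp2, on the minus strand of chromosome 16, had 175 distinct sites between 21877866 and 21981944, 110 of them (62.9%) within 5 kb of the 3′-most one. Of these 156 were listed by 1 library, 15 by 2, 3 by 3 and 1 by all 4. The last, chr16:21879279, had 13.9% (661 reads) and 12.6% (634 reads) without dTAG13 and 12.2% (492 reads) and 25.7% (513 reads) with it. Here dTAG13 replicate 2 alone was high. The quasi-binomial adjusted p was 0.842. With the reads of each group summed, the difference of 5.82 points became -1.09 without dTAG13 replicate 2. At the neighbouring chr16:21879283 the first replicates had 16.3% (814 reads) and 25.3% (478 reads), and at chr16:21879294 untreated replicate 2 and dTAG13 replicate 1 had 15.6% (1017 reads) and 19.3% (581 reads). Levels in this short stretch thus ran from 12.2% to 25.7%.

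At chr16:21878884 Igf2bp2 had 24.4% (439 reads) and 37.4% (385 reads) without dTAG13 and 14.3% (56 reads) in dTAG13 replicate 2. At chr16:21889088 it had 17.3% (243 reads) in untreated replicate 1 and 12.4% (153 reads) and 42.1% (233 reads) with dTAG13. At chr16:21879201 it had 19.3% (119 reads) in untreated replicate 2 and 31.5% (165 reads) and 10.4% (270 reads) with dTAG13. At the first the dTAG13 value was below both untreated ones, and at the others the dTAG13 replicates lay on either side of the untreated value. None passed the test over sites in at least 3 libraries (quasi-binomial adjusted p = 0.854, 0.865 and 0.994). The highest well-covered single-library level was 63.5% (49.9% to 75.2%, 52 reads) at chr16:21902720 in untreated replicate 2.

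Igf2bp3, on the minus strand of chromosome 6, had 271 distinct sites between 49062182 and 49194667, of which 149 (55.0%) lay within 5 kb of the 3′-most one. Of these 242 were listed by 1 library, 25 by 2, 4 by 3 and 0 by all 4. At chr6:49062211 the level was 12.7% (741 reads) and 11.1% (552 reads) without dTAG13 and 10.7% (551 reads) in dTAG13 replicate 2. At chr6:49085878 it was 12.9% (116 reads) and 18.4% (158 reads) without and 25.4% (189 reads) in dTAG13 replicate 2. The first site was nearly level and the second was higher with dTAG13, and neither passed (quasi-binomial adjusted p = 0.906 and 0.691).

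At chr6:49191937 Igf2bp3 had 20.9% (253 reads) in untreated replicate 2 and 28.1% (96 reads) and 38.1% (21 reads) with dTAG13. At chr6:49191766 it had 15.9% (82 reads) and 25.8% (31 reads) without and 15.7% (51 reads) in dTAG13 replicate 1. The dTAG13 values were both higher at the first. At the second the lone dTAG13 value nearly equalled the lower untreated one, with overlapping intervals. With the reads of each group summed, the differences were 8.97 and -2.90 points, and neither site passed. At chr6:49062727 untreated replicate 1 had 13.7% (1419 reads) and dTAG13 replicate 2 had 27.8% (353 reads), and at chr6:49081117 untreated replicate 2 and dTAG13 replicate 1 had 16.0% (549 reads) and 16.1% (590 reads). The highest well-covered single-library level was 100% (98.3% to 100%, 226 reads) at chr6:49192126 in dTAG13 replicate 1, the deepest site at that level among those named here.

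**Figure D4:**
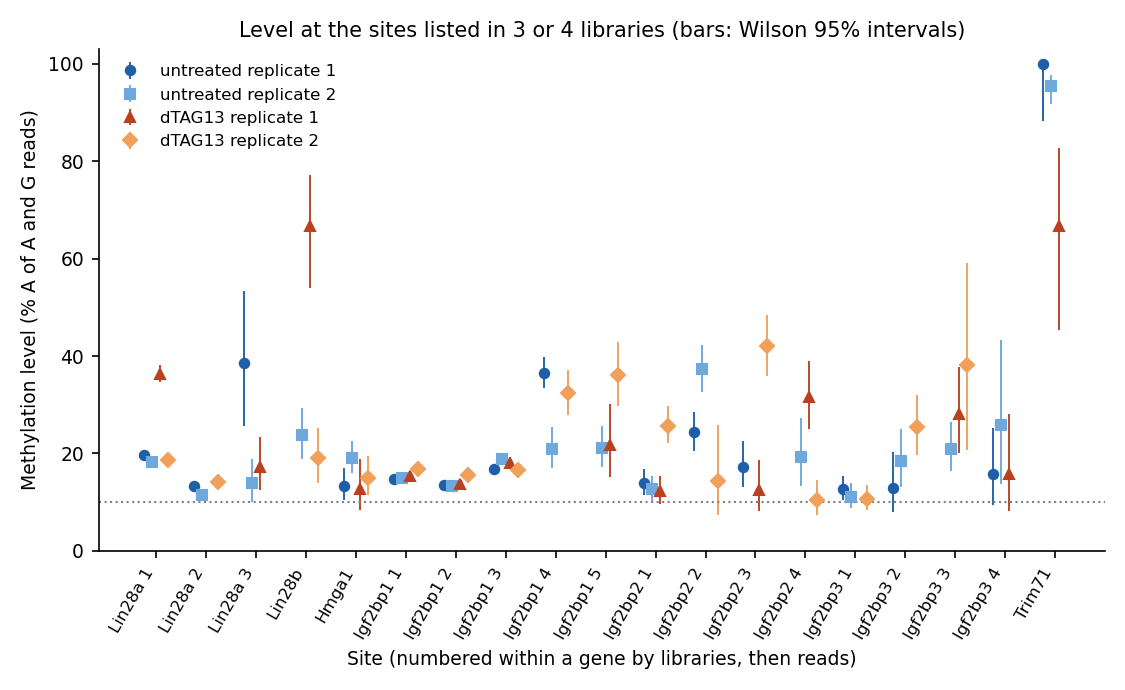
Methylation level (y axis, % A of A and G reads) of the 19 member sites listed in 3 or 4 libraries (x axis); symbols are single libraries, bars Wilson 95% intervals, and the dotted line the listing limit of 10%. Apart from Trim71, and from Lin28b in dTAG13 replicate 1 (66.7%), the highest value is 42.1%, and the site of Trim71 stands at 100% and 95.5% without dTAG13 and at 66.7% in dTAG13 replicate 1.

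Across the 9 genes, 6 sites had at least 20 reads in all 4 libraries and could be tested, and 0 passed. The quasi-binomial test over all 2321 such sites called 51 lower (2.2%) and 2 higher (0.0862%) with dTAG13. Extending it to the 9198 sites of at least 3 libraries brought the member sites to 19. There the test called 0 sites (0%), with 1076 at an unadjusted p under 0.05, and no member site among the 19 had one. Of the 53 calls over all sites none was made when any 1 of the 4 libraries was left out, dTAG13 or untreated.

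Few sites of the 9 genes recurred between libraries. Of their 1410 sites 1264 (89.6%) were listed by 1 library, 127 by 2, 13 by 3 and 6 (0.426%) by all 4, against 91.4%, 7.77%, 0.728% and 0.146% of all sites inside genes. The untreated pair shared 41 member sites, 9.23% of each list. The dTAG13 pair shared 26, which is 8.64% of the list of replicate 1 and 6.63% of that of replicate 2. Mixed pairs shared 27, 33, 35 and 40, so 1 mixed pair came within 1 site of the untreated pair. Over all sites inside genes the untreated pair shared 25086, the dTAG13 pair 11156 and mixed pairs 12953 to 14168. There the untreated pair thus stood well above every mixed pair. Member sites listed once had a median level of 21.0% and a median of 145 reads, and those listed more often had 17.3% and 202 reads.

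The fate of the recurrent sites was then followed. Of the 41 member sites listed by both untreated libraries, 27 (65.9%) were listed by neither dTAG13 library, 8 by 1 and 6 by both. Over all sites inside genes 80% of such sites were listed by neither. Igf2bp1 contributed 14 of the 41, and 10 of these were listed by neither dTAG13 library. In Lin28b it was 5 of 5, in Trim71 3 of 4, in Igf2bp3 3 of 6, in Lin28a 2 of 5, in Hmga1 2 of 3, in Igf2bp2 1 of 3 and in Dis3l2 1 of 1. Taken the other way, 15 of the 26 sites of both dTAG13 libraries (57.7%) were listed by neither untreated one, against 68.8% of all sites inside genes. Sites of the same libraries are not independent of one another, so no interval is given for these shares.

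Finally, 104 member sites were listed in at least 1 library of each group, so that levels could be set side by side. The mean level was lower with dTAG13 at 43 (41.3%) and higher at 61, against 43.1% lower over all sites inside genes. The median difference was 1.85 points for the members and 1.57 points for all genic sites. All 5 such sites of Hmga2 and all 3 of Hmga1 were lower, whereas 12 of 17 in Lin28a, 12 of 17 in Igf2bp2 and 17 of 28 in Igf2bp1 were higher. Sites that dropped below the listing limit in a whole group are not among these.

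Other genes of the pathway were read from lists of known components. Of the let-7 biogenesis and small-RNA genes 14 are reported, 13 of them listed in all 4 libraries. By limma 0 of the 13 passed for coverage, and 3 had both dTAG13 values lower, against 28.1% of all genes. The median difference was -0.08, close to the -0.07 of all genes. Drosha and its partner Dgcr8, which process primary microRNAs, differed by -0.28 and -0.13 (limma adjusted p = 0.579 and 0.807), and Dicer1, which cuts the precursor, by -0.01 (limma adjusted p = 0.984). Tut4 and Tut7, the uridylyltransferases that act with LIN28A, differed by -0.24 and 0.37 (limma adjusted p = 0.640 and 0.619). In 11 of the 13 genes both dTAG13 libraries listed fewer sites than both untreated ones. All 13 had a mean of at least 10 untreated sites, and of all such genes 57.3% showed this pattern. Dicer1, for instance, listed 86 and 73 sites in the untreated and 51 and 44 in the dTAG13 libraries. The 1 site of these genes that could be tested, in Tent2, did not pass (quasi-binomial adjusted p = 0.998).

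Of 22 let-7 target genes other than the members, 21 were listed in all 4 libraries and 0 passed for coverage by limma, with a median difference of -0.14. Both dTAG13 values were lower in 10 of the 21, against 28.1% of all genes. Of these target genes 12 had a mean coverage of at least 150, a range in which 49.2% of genes had both values lower. Myc had 148 and 192 without dTAG13 and 65.8 and 145 with it (-0.70, limma adjusted p = 0.399), and its relative Mycn had 160 and 199 against 203 and 271, the opposite order (0.47, limma adjusted p = 0.406). The cyclin genes Ccnd1 and Ccnd2 differed by 0.15 and -0.02 (limma adjusted p = 0.755 and 0.978). In 14 of the 21 genes both dTAG13 libraries listed fewer sites and in 2 more, and 0 of 3 testable sites passed. All 21 had a mean of at least 10 untreated sites, for which 57.3% of genes listed fewer, and 4.53% of all genes listed more.

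Of 10 known partners of IGF2BP ribonucleoproteins, all 10 were listed in all 4 libraries and 0 passed for coverage by limma, and 7 had both dTAG13 values lower, with a median difference of -0.46. Of the 10 genes 9 had a mean coverage of at least 150, a range in which 49.2% of genes had both values lower and the median was -0.28. Actb, an IGF2BP1 target that encodes cytoplasmic actin, had 1134 and 1266 without dTAG13 and 527 and 707 with it (-0.89, limma adjusted p = 0.363). Ptbp1, a splicing repressor, had 872 and 870 against 419 and 534 (-0.80, limma adjusted p = 0.363). Igf2, the mRNA that gave the family its name, had 91.6 and 98.7 against 89.2 and 130, which overlap (0.26, limma adjusted p = 0.593). Both dTAG13 libraries listed fewer sites in 4 of the 10 genes and more in 3, where all genes gave 44.6% and 4.53%, and genes with at least 10 untreated sites 57.3% fewer.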

How the data were processed

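GLORI libraries of 2 untreated and 2 dTAG13-treated organoid samples were analysed, 1 deposited site table per library, with replicates not pooled; groups came from the sample titles. The deposited counts are A or G reads and A reads per called site, not normalised. The level is a deposited fraction, A reads over A or G reads, uncorrected for incomplete conversion, and it equalled the ratio of the counts at 100% of sites within 0.00001. A second deposited fraction, 1 per gene, gives the conversion rate. The gene coverage signal was deposited by the authors as 1 value per gene and library, not normalised to depth. The p-value of each site and its adjusted form are the authors' own, and no listed site exceeded an adjusted p of 0.00401. Per the names of the deposited tables, second mates were used after trimming and cleaning. The aligner, the site caller and the handling of duplicates are not given in the sources used here. The submitters' processing notes name mm10, but only 8.44% of the member sites fall inside the GRCm38 interval of their gene, and 2 contigs carry names of GRCm39; positions are printed as deposited. No genome was used, so sequence, motif and transcript region were not assigned.

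Tests ran over the whole tables with Python 3.11.15 (pandas 2.3.3, scipy 1.17.1) and R 4.3.3 (limma 3.58.1). Site levels were tested with a quasi-binomial logistic regression on read numbers at sites with at least 20 reads in all 4 libraries (2321 sites) or in at least 3 (9198). The dispersion was moderated over sites with squeezeVar and held at 1 or above, followed by a two-sided F test. Coverage (log2, median-centred) and conversion (log2 odds) were tested with limma over 12520 genes. Values of p were adjusted by Benjamini-Hochberg with a threshold of 0.05. Single values were compared by exact two-sided permutation, whose smallest p with 2 against 2 is 0.33. Both models were run on simulated data with known changes. The quasi-binomial test recovered 62.5% of 200 changed sites among 2321, and 24.0% with a replicate block, with 0 false calls in each run. For coverage, limma recovered 100% of 200 changed genes among 12520, with 6 false calls. Recovery at the sizes of difference seen in the members was not tested. Every gene was described, as were sites in at least 2 libraries (at most 6 per gene, by libraries and then reads), the highest single-library site with at least 50 reads, and the 3 genes closest in coverage to the most covered member. The members, the lists and the tests were chosen with earlier results of these data known. From the let-7 biogenesis list and the retinal progenitor markers, 1 gene each is not reported here and enters none of their counts. Replicate numbers were not used to pair the libraries in the main tests. The correlation of replicate differences was 0.00227 for coverage, 0.00829 for conversion and 0.0385 for site levels. These values cannot show whether libraries of the same number shared a culture or batch. Alternatives were read minima, other models, stricter calls, other scalings, a replicate block and leaving out each library. No label says that the replicates were separate cultures, so p-values measure the spread between these libraries only. Wilson 95% intervals cover counting error only, since PCR duplicates may remain.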

Additional observations from a re-analysis of the deposited data

How the results depend on the processing

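Calls over all sites depended on the model and on each library. The 53 calls of the quasi-binomial test became 531 when replicates were summed and compared by Fisher's exact test, a test blind to replicate spread, and 0 with the replicate block. They were 0 to 0 when 1 library was left out, where 196 to 217 sites had an unadjusted p under 0.05. The block and the loss of a library each leave 1 residual degree of freedom in place of 2. Over sites in at least 3 libraries the 0 calls became 3522 with Fisher's test. For coverage the 0 limma calls became 15 without centring, which moves the median of all genes from -0.07 to -0.15 on the log2 scale, and stayed 0 with the replicate block. Conversion kept 0 calls in every alternative run. The replicate block changed no call at a member.

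For the 9 genes, the ratio of listed sites of 0.780 became 0.933 at levels of at least 20%, 0.768 with at least 50 reads, 0.781 at an authors' adjusted p under 0.001, and 0.678 to 0.883 when 1 library was left out. All sites inside genes gave ratios of 0.690 at levels of 20 to under 50% and 0.788 at 50% or more. The 65.9% of untreated sites listed by neither dTAG13 library became 83.3% at a mean level of at least 40%, over 6 sites, and 67.6% with at least 50 reads. Over all sites inside genes the same shares were 80%, 85.8% and 77.5%. Differences of site levels were taken here with the reads of each group summed. Signs turned when 1 library was left out at 4 sites, with ranges in points of -1.52 to 0.565 at Igf2bp1 chr11:95849376, -1.09 to 12.4 at Igf2bp2 chr16:21879279, -4.83 to 0.906 at Hmga1 chr17:27775781 and -0.403 to 17.4 at Lin28a chr4:133730821. They also turned for the coverage of Trim71 (-0.19 to 0.60, log2) and the conversion of Dis3l2 (-0.17 to 0.21), Igf2bp1 (-0.10 to 0.15) and Igf2bp3 (-0.086 to 0.11, log2 odds). Among values of single genes and sites, 266 kept direction and side, 10 crossed the threshold with Fisher's test and 11 turned sign. The causes were not tested. Depth limits the reading of unlisted positions, which can be unmethylated, below 10% or under 15 reads.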

Other observations

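Hmga1b, a copy of Hmga1 that the tables place on chromosome 11, had a coverage nearly as high as its parent, 1217 and 1009 untreated and 614 and 624 after dTAG13. The dTAG13 values were both lower, by -0.76 on the log2 scale after centring (SE 0.25, limma adjusted p = 0.364), which did not pass the threshold. Both were lower in 28.1% of all genes, and in 49.2% of those with a mean coverage of at least 150. Its listed sites ran the other way from those of Hmga1, 3 and 4 without dTAG13 and 9 and 8 with it, without overlap. Of all genes 4.53% had both dTAG13 site numbers above both untreated ones. Their levels ran from 22.0% to 47.8% and from 12.8% to 80.3% without dTAG13 and from 11.9% to 43.6% and from 13.1% to 98.1% in the dTAG13 libraries. Since the copies may share reads, sites and coverage of Hmga1 and Hmga1b cannot be told apart with these tables. Hmga2-ps1, a copy of Hmga2 on chromosome 1, had 1 listed site, in untreated replicate 1, at 98.5% (66 reads).

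Listed sites stood close to one another in some of the 9 genes. Another listed site lay within 10 nt in the same library for 40.5% and 33.3% of the member sites without dTAG13 and for 29.2% and 37.5% with it. For all sites inside genes the shares were 32.1% and 30.2% without and 29.2% and 28.9% with dTAG13. Over all libraries the share was highest in Igf2bp2 (42.2%) and Igf2bp3 (41.8%). It was lowest in Hmga1 (11.8%), Dis3l2 (21.2%), Trim71 (23.2%) and Hmga2 (28.3%). Summed over the 7 retinal progenitor markers, coverage came to 2933 and 3376 in the untreated and 2142 and 3144 in the dTAG13 libraries, and over the 7 pluripotent cell markers it was 1007 and 1034 against 760 and 1110. The mesoderm or endoderm markers summed to 221 and 60.8 against 50.5 and 120, and the neural crest or surface ectoderm markers to 75.6 and 86.6 against 130.8 and 102.6. Those sums take unlisted genes as 0 and hold different genes in each library, so they cannot be compared between groups. The markers of these lists found in every library were Sox17, at 45.8 and 26.0 against 29.3 and 69.8, and Krt18, at 75.6 and 60.6 against 70.3 and 48.8. Only markers listed in all 4 libraries were tested, and of those none passed for coverage by limma, and the part of cell composition in the results on the 9 genes was not tested.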
